A study of Mus musculus with 16 samples.

Results

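The 10 µM and the 5 µM dose of azacytidine were compared in Erbb2-transfected NIH3T3 cells, on 12 of the 16 arrays of the study, chosen by their titles. At 10 µM there were 8 arrays and at 5 µM there were 4. NIH3T3 is an established line of mouse embryonic fibroblasts, and the transfected gene encodes Erbb2, a receptor tyrosine kinase of the epidermal growth factor receptor family. Treated and untreated cells of 1 line were hybridised together on each array, so the untreated side of these 12 arrays carried the transfected gene as well. The treated RNA was labelled with Cy5 on 4 of the 8 arrays at 10 µM and on 2 of the 4 arrays at 5 µM, and with Cy3 on the others. A further 4 arrays of untransfected NIH3T3 cells at 10 µM, set against untreated cells of that line, entered the same filter and fit, so they shared the estimate of spread. Treatment time, the promoter that drove Erbb2 and the number of transfected clones, all of them not given in the sources used here, limit the model, and no probe carried the symbol Erbb2, so the transfected gene could not be checked.

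Azacytidine is a cytidine analogue. Cells take it up through nucleoside transporters such as Slc29a1, and uridine-cytidine kinases (Uck1, Uck2) phosphorylate it, while cytidine deaminase (Cda) inactivates it. Most of it enters RNA, and the part that ribonucleotide reductase (Rrm1, Rrm2) converts to the deoxy form enters DNA, where it traps DNA methyltransferases, so that methylation of CG dinucleotides is lost as cells divide. In cultured mouse fibroblasts the drug is known for switching on silenced genes and for the appearance of muscle and fat cells. The arrays measured RNA, and methylation was not measured.

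Of 20355 probes, 16153 to 18507 had a ratio on an array of Erbb2 cells. Filtering and averaging by gene left 12420 features, 7832 genes with a symbol and the rest single probes without one, written here as probe and their number. Each value is a log2 ratio, treated over untreated RNA, and ± gives limma's standard error, over 8 arrays at 10 µM and 4 at 5 µM unless another n is given. The threshold was an adjusted p under 0.05 (two-sided, Benjamini-Hochberg, over the 12420 features). The files do not say which channel was the numerator. Values were assumed to be Cy5 over Cy3 on every array, and the arrays with treated RNA in Cy3 were turned. Each direction is called likely on that assumption only. That the numerator was 1 fixed dye rests on a constant that had been added to all values of an array. It was below 0 on all 8 arrays with treated RNA in Cy5 and on all 8 with it in Cy3. The constant does not tell which dye that was. Among these arrays are the 4 untransfected ones, whose dye labels are in doubt. If the numerator was Cy3, every sign would turn. The labels do not say whether the arrays of a dose came from separate cultures, so p-values here reflect only how arrays vary, which may be technical, and a ratio cannot tell fewer cells of a type from less RNA per cell.

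Cd5, Hoxb1 and Apaf1 were 3 of the genes higher at both doses, and the sequences around their starts show how differently such genes can be endowed with the CG dinucleotides that DNA methyltransferases act on. The sequences are RefSeq windows on build GRCm38.p6 of 300 bases, from 250 before to 50 after the gene's most upstream annotated start. Which start these cells use was not measured. The windows are given 5′ to 3′ in lower case with each CG in capitals. They lie at chr19:10738925-10739224 on the minus strand (Cd5), chr11:96365508-96365807 on the plus strand (Hoxb1) and chr10:91082694-91082993 on the minus strand (Apaf1).
Cd5: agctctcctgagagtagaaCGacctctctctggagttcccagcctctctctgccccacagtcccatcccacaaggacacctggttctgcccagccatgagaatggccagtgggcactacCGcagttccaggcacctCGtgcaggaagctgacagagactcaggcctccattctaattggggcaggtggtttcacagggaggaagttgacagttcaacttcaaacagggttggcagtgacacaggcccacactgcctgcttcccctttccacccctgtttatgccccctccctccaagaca
Hoxb1: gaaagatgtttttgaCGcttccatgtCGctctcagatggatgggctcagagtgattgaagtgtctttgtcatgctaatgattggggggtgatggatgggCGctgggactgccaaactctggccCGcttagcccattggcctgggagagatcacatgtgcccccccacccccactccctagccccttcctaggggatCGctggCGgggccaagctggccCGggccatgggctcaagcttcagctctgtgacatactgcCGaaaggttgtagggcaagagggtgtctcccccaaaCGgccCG
Apaf1: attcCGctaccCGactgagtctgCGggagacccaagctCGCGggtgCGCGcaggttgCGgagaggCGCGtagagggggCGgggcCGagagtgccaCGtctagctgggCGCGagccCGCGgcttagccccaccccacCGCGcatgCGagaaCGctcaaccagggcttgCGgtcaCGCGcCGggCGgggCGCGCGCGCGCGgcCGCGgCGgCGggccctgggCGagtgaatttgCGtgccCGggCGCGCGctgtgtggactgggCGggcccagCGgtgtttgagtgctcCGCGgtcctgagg
The Cd5 window held 3 CG, the Hoxb1 window 10 and the Apaf1 window 46. Over the windows of 27025 genes, with a chromosome left out, the median was 7 CG, with quartiles of 3 and 20. Of these windows 76.1% held at least as many as Cd5, 44.0% as many as Hoxb1 and 1.59% as many as Apaf1. Of the 9 named genes past the threshold at both doses, 8 had a window. The other 5 held 0 CG (Aldoa), 2 (Cp), 4 (Zcchc4), 23 (Psap) and 40 (Lhfpl2). The windows at these starts therefore ran from CG-free to among the most CG-rich. The motif searched was CG, which reads the same on both strands, and the counts describe the sequence, not its methylation.

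Azacytidine at either dose moved few features past the threshold, and in the fit reported here those that passed at both doses were mostly higher. At 10 µM 157 features passed (1.26% of those tested), 50 higher (0.403%) and 107 lower (0.862%), and at 5 µM 26 passed (0.209%), 22 higher (0.177%) and 4 lower (0.0322%). The median standard error was 0.260 at 10 µM and 0.361 at 5 µM, where there were fewer arrays. At both doses, with 1 sign, 20 features passed (0.161%), 17 higher and 3 lower, and 0 features passed at both doses with opposite signs. They were 9 named genes and 11 unnamed probes. The excess of higher features depended on the settings. With a value required on every array 21 were higher and 22 lower, and with array weights 28 were higher and 35 lower. Each of the 20 had a value on all 12 arrays and 1 sign on 12 of 12, which held for 195 of the 7763 features with 12 values (2.51%); the features were chosen on these same values, so nothing is read from it. The ratios of both doses were taken against untreated cells of the same line, so the overlap has no test, and both doses' values are given side by side.

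**Figure D1:**
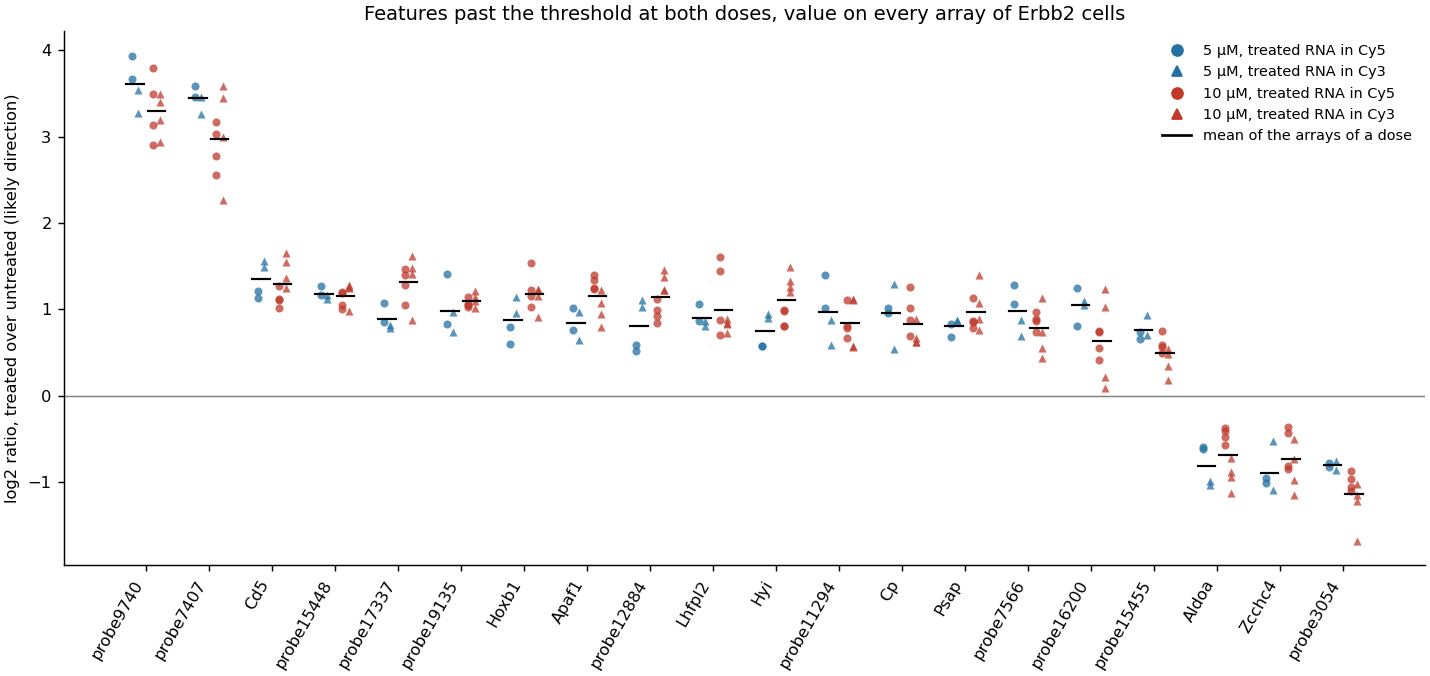
Log2 ratio of treated over untreated RNA on each of the 12 arrays of Erbb2 cells (vertical axis, likely direction) for the 20 features past the threshold at both doses (horizontal axis). Blue marks are 5 µM and red marks 10 µM, circles have the treated RNA in Cy5 and triangles in Cy3, and black bars are the means of a dose; every feature keeps 1 sign on all 12 arrays, and probe9740 and probe7407 stand above the rest.

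Cd5 (Entrez Gene 12507), a scavenger-receptor-like membrane protein of T cells and some B cells, was the named gene with the greatest response at both doses. At 5 µM its 4 arrays read 1.21, 1.13, 1.56 and 1.49. At 10 µM its 8 arrays read 1.12, 1.11, 1.27, 1.02, 1.36, 1.55, 1.65 and 1.25. The doses overlapped throughout, and on both the arrays with treated RNA in Cy3 read higher, with means of 1.52 against 1.17 at 5 µM and 1.45 against 1.13 at 10 µM. Cd5 rose by 1.35 ± 0.14 at 5 µM (2.55-fold) and by 1.29 ± 0.10 at 10 µM (2.45-fold), with adjusted p of 0.000403 and 7.78e-06 in limma. The difference, 10 minus 5 µM, was -0.06, with a 95% interval from -0.42 to 0.30. Of the 8 T lymphocyte markers listed, 5 were measured, and Cd5 was the one that passed in the mean of both doses, where 1.47% of all features passed. The ratios hold no levels, so whether the others were present could not be read.

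Apaf1 (11783), a p53 target whose protein assembles into the apoptosome and activates caspases, read 1.01, 0.76, 0.64 and 0.97 at 5 µM. At 10 µM it read 1.24, 1.25, 1.40, 1.34, 0.94, 1.07, 1.22 and 0.79. Of the 8 arrays at 10 µM, 6 were above every array at 5 µM and the other 2 were within the range of 5 µM. The rise was 0.84 ± 0.14 at 5 µM and 1.15 ± 0.10 at 10 µM, and the difference of 0.31 had an interval from -0.06 to 0.68. Of 13 measured genes of the apoptosome and apoptosis list, Apaf1 was the one that passed at either dose, and the list's median was 0.14 at 10 µM and 0.06 at 5 µM. It was also the one of 14 measured p53 targets that passed, in a list with a median of 0.20 at 10 µM and 0.28 at 5 µM. Over all features 1.26% passed at 10 µM and 0.209% at 5 µM, and nothing is read from counts of 1 in such short lists. Cdkn1a, the p53-induced inhibitor of cyclin-dependent kinases, did not pass at either dose: at 10 µM arrays 1 to 4 read from -2.77 to -2.55, array 7 read -0.67 and array 8 read 2.56, with no value on the other 2.

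Hoxb1 (15407), a homeobox transcription factor of early hindbrain patterning, read 0.60, 0.79, 0.96 and 1.15 at 5 µM. At 10 µM it read 1.16, 1.02, 1.53, 1.22, 1.22, 0.91, 1.16 and 1.23, with all but 2 arrays above the highest at 5 µM. It rose by 0.87 ± 0.15 and 1.18 ± 0.11, and the difference of 0.31 had an interval from -0.09 to 0.71. Among 18 measured homeobox genes it was the one that passed at either dose, and the median of the list was 0.00 at both. Over all features 1.26% passed at 10 µM and 0.209% at 5 µM, so nothing is read from this count.

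Hyi (68180), a putative hydroxypyruvate isomerase, had the widest fitted difference between the doses among these named genes. It read 0.57, 0.57, 0.95 and 0.90 at 5 µM and 0.99, 0.81, 0.98, 0.81, 1.2, 1.26, 1.49 and 1.33 at 10 µM. With both dyes together the doses overlapped. Within the Cy5 arrays Hyi ran from 0.81 to 0.99 at 10 µM against 0.57 on both arrays at 5 µM. Within the Cy3 arrays it ran from 1.2 to 1.49 against 0.90 and 0.95, so within each dye the doses did not overlap. Probe12884 and probe3054, also past the threshold at both doses, showed this as well. Each dye had only 2 arrays at 5 µM, and how many of all features do so was not counted, so nothing is read from it. Fitted, Hyi rose by 0.75 ± 0.13 and 1.11 ± 0.10. The difference of 0.36 (interval 0.01 to 0.71) had an unadjusted p of 0.0458 and an adjusted p of 0.998 in limma.

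The other 3 named genes that rose were a lysosomal, a membrane and a plasma protein gene. Psap (19156), the precursor of the saposins that activate lysosomal sphingolipid hydrolases, read 0.68, 0.83, 0.86 and 0.87 at 5 µM and between 0.76 and 1.40 at 10 µM, with a median of 0.87. Lhfpl2 (218454), a tetraspan membrane protein, read 1.06, 0.87, 0.86 and 0.80 at 5 µM and between 0.70 and 1.60 at 10 µM, where arrays 2 and 3 (1.45 and 1.60) stood above the other 6, which ended at 0.89. Cp (12870), the copper-carrying ferroxidase ceruloplasmin, read 0.96, 1.01, 1.30 and 0.54 at 5 µM and between 0.62 and 1.26 at 10 µM. Their fitted values at 5 and 10 µM were 0.81 ± 0.15 and 0.97 ± 0.10 for Psap, 0.90 ± 0.17 and 0.99 ± 0.12 for Lhfpl2, and 0.95 ± 0.17 and 0.83 ± 0.12 for Cp. For all 3 the doses overlapped, and the intervals of the difference ran from -0.23 to 0.54, from -0.35 to 0.53 and from -0.57 to 0.32.

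The 2 named genes that fell at both doses were Aldoa and Zcchc4. Aldoa (11674), the glycolytic fructose-bisphosphate aldolase, was averaged over 3 probes and read -0.62, -0.60, -0.99 and -1.04 at 5 µM. At 10 µM arrays 1 to 4, with Cy5 on the treated side, read -0.38, -0.48, -0.58 and -0.42, and arrays 5 to 8, with Cy3 there, read -0.94, -1.13, -0.89 and -0.72. The arrays split by dye at both doses, with the same sign in each dye. Its 3 probes all read below 0, with means from -0.86 to -0.56 at 10 µM and from -0.86 to -0.72 at 5 µM. The fall was -0.81 ± 0.14 at 5 µM and -0.69 ± 0.10 at 10 µM. Zcchc4 (78796), an RNA methyltransferase that modifies 28S ribosomal RNA, read -1.01, -0.95, -1.09 and -0.53 at 5 µM and between -1.15 and -0.37 at 10 µM, with fitted values of -0.90 ± 0.17 and -0.73 ± 0.12.

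Among the 11 unnamed probes, 2 moved far more than any other feature past the threshold at both doses. Probe9740 read 3.94, 3.66, 3.55 and 3.27 at 5 µM and between 2.90 and 3.79 at 10 µM, fitted at 3.61 ± 0.17 (12.2-fold) and 3.29 ± 0.12 (9.81-fold). Probe7407 read 3.59, 3.46, 3.46 and 3.26 at 5 µM and between 2.26 and 3.59 at 10 µM, fitted at 3.44 ± 0.21 (10.9-fold) and 2.97 ± 0.15 (7.86-fold). Both read lower at the higher dose, by -0.31 (interval -0.75 to 0.13) and -0.47 (interval -1.01 to 0.07). Neither probe has a gene symbol here.

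The other 9 unnamed probes ran closer to the named genes. Those higher were, at 5 and then 10 µM, probe15448 (1.18 ± 0.13 and 1.15 ± 0.10), probe19135 (0.98 ± 0.14 and 1.09 ± 0.10), probe17337 (0.88 ± 0.15 and 1.32 ± 0.11), probe12884 (0.81 ± 0.13 and 1.14 ± 0.09), probe11294 (0.97 ± 0.16 and 0.84 ± 0.12), probe7566 (0.98 ± 0.15 and 0.79 ± 0.11), probe16200 (1.05 ± 0.19 and 0.63 ± 0.13) and probe15455 (0.76 ± 0.14 and 0.49 ± 0.10). Probe3054 was lower, at -0.81 ± 0.14 and -1.14 ± 0.10. It was the one feature of the 20 whose doses did not overlap: at 5 µM it lay between -0.86 and -0.76, and at 10 µM between -1.68 and -0.88. Over all features 80 had no overlap between the doses (0.644%).

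The fitted sizes of the 20 had a median of 1.10 at 10 µM and 0.897 at 5 µM, with 9 of the 20 larger at 10 µM and 11 larger at 5 µM. The 20 were chosen on these values, and the wider standard errors at 5 µM asked for larger values there, so nothing is read from these sizes. The weakest of the 20 by the larger of both adjusted p were Lhfpl2, probe15455 and Zcchc4, each at 0.0451 in limma, and it was the value at 5 µM that set the limit for them. The nearest features outside were probe11028 and probe16139 at 0.0525 and probe2099 at 0.0570, whose values at 5 µM were 1.21 ± 0.23, 0.93 ± 0.18 and 0.94 ± 0.18. The count rested on single arrays and on the estimate of spread. In fits that left out 1 of the 12 arrays, 4 to 17 features passed at both doses: 4 without array 1, 2 or 3 of 5 µM, 5 without array 4 of 5 µM or array 1, 2 or 7 of 10 µM, 6 without array 4, 10 without array 3, 12 without array 8, 13 without array 5 and 17 without array 6 of 10 µM. In a fit on the 12 arrays alone 5 passed. Probe9740, probe7407, Cd5 and probe15448 passed at both doses in each of these fits, while Lhfpl2, Zcchc4 and probe15455 did so in none of them. Of the 12 fits that left out 1 array, Apaf1 passed at both doses in 4, Hoxb1 in 3, Psap and Cp in 2, and Hyi and Aldoa in 1. With no array turned for its dye 0 features passed at both doses, but in that setting the response cancels between the dyes.

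The direct comparison asked whether the response at 10 µM differed from that at 5 µM. No feature passed in limma (0%), the smallest adjusted p was 0.682, and 538 features had an unadjusted p under 0.05 (4.33%), fewer than the 621 that a 5% rate gives over 12420 features. This count of 0 does not show that the doses acted alike. The interval of the difference had a median half-width of 0.956 on the log2 scale, and it lay within 1 log2 unit (2-fold) on either side of 0 for 4063 features (32.7%) and within 0.5 for 368. For the 20 features above the standard errors of the difference were smaller, from 0.161 to 0.252. Their interval covered 0 for 18 of 20, the others being Hyi and probe17337, and it lay within 1 log2 unit for 19, the exception being probe7407. The 20 were chosen for passing at both doses with 1 sign on these same values. That choice favours small standard errors and similar values, so nothing is read from these counts.

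**Figure D2:**
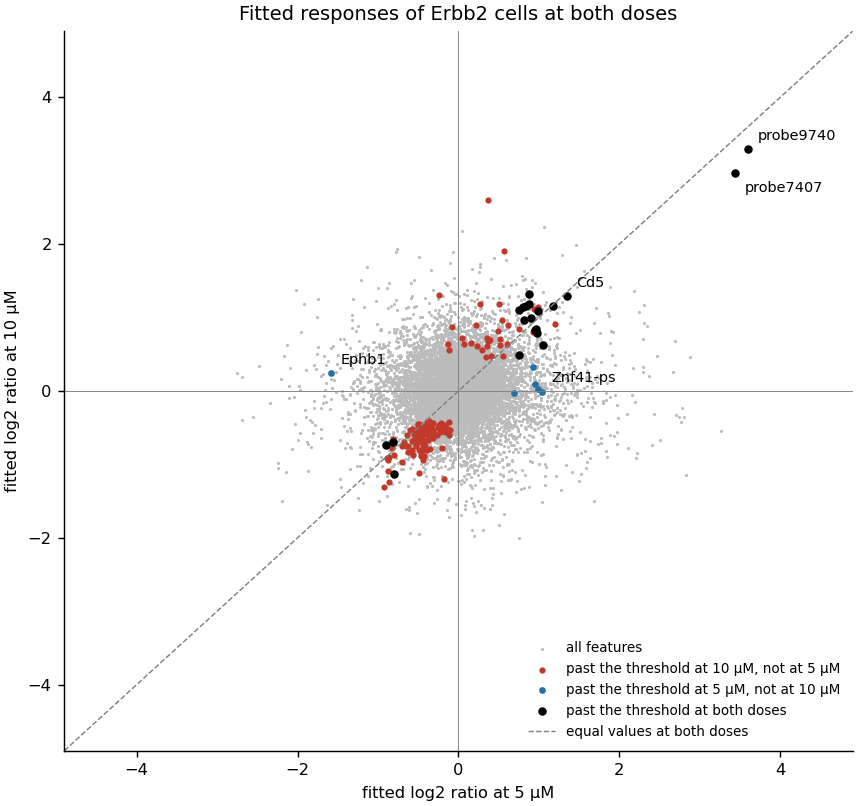
Fitted log2 ratio at 5 µM (horizontal axis) against that at 10 µM (vertical axis) for all 12420 features, with black marks for the 20 past the threshold at both doses, red for those past it at 10 µM only, blue for the 6 past it at 5 µM only, and a dashed line of equal values. The black marks lie near the dashed line and the blue marks close to 0 on the vertical axis, both as the choice by threshold favours. Probe9740 and probe7407 lie far at upper right.

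The genes nearest to a dose difference included the receptor Ephb1 and the precursor protein App, which read higher at 10 µM, and the spindle gene Haus4, which read lower. They were among 16 named genes, the 8 of smallest unadjusted p in each direction, with unnamed probes left out. Their differences are therefore a description, and none of the 16 passed. Ephb1 (270190), an ephrin receptor, read -1.24, -0.49, -2.48 and -2.12 at 5 µM and between -0.46 and 0.90 on 7 arrays at 10 µM, a difference of 1.83 with an interval from 1.06 to 2.59. App (11820), the amyloid precursor protein, read 0.58, -0.18, -0.40 and -0.32 at 5 µM. At 10 µM its Cy5 arrays read 1.10, 1.21, 1.11 and 1.25 and its Cy3 arrays 0.56, 0.55, 0.64 and 0.57. The difference of App was 0.95 (interval 0.53 to 1.37), and array 1 of 5 µM was the one array of that dose inside the range of 10 µM. Cry1 (12952), a repressor of the circadian clock, read between -1.26 and -0.48 at 5 µM and between -0.43 and 2.61 on 7 arrays at 10 µM, a difference of 2.01 (interval 1.0 to 3.02).

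Lower at 10 µM than at 5 µM were Znf41-ps (70005), a zinc finger pseudogene, which read 0.87, 0.78, 1.29 and 1.24 at 5 µM and between -0.29 and 0.38 at 10 µM (difference -1.05, interval -1.47 to -0.63), and Haus4 (219072), part of the augmin complex that adds microtubules to the mitotic spindle. Haus4 read 0.69, 0.62, 0.68 and 0.76 at 5 µM and between -0.22 and 0.17 at 10 µM, with a difference of -0.71 (interval -1.05 to -0.38). Samd11 (231004) read 1.15, 1.11, 0.72 and 0.99 at 5 µM and between -0.79 and 0.86 at 10 µM, so that array 4 of 10 µM lay among the arrays of 5 µM. Tmco5b (75275) read between 0.49 and 1.07 at 5 µM and between -0.65 and 0.29 at 10 µM.

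Other differences among the 16 came with scattered ratios. Fzd3 (14365), a Wnt receptor, read 0.28, 0.03, -4.30 and -4.53 at 5 µM, so its difference of 2.75 (interval 1.43 to 4.08) rested on the 2 arrays with treated RNA in Cy3. Crip2 (68337), a LIM domain protein, read -1.06, -2.65, -3.48 and 0.21 at 5 µM and from 0.26 to 2.44 on 6 arrays at 10 µM, with a difference of 2.99 (interval 1.5 to 4.48). Mrpl30 (107734), of the mitochondrial ribosome, read -3.10, -0.26 and -1.18 on 3 arrays at 5 µM and from -0.02 to 1.0 on 6 at 10 µM. Polq (77782), DNA polymerase theta, and Atat1 (73242), the alpha-tubulin acetyltransferase, were each averaged over 2 probes that disagreed. The Polq probes had means of -0.32 and -2.81 at 5 µM and 0.65 and -0.58 at 10 µM, and the Atat1 probes 0.02 and 1.86 at 5 µM and -0.11 and -1.16 at 10 µM. Chst10 (98388), Prss44 (73336) and Kcnj8 (16523) had differences of -1.85, -1.58 and -1.63, and Tmem86a (67893) one of 2.23. Of the 16 genes, 10 had no overlap between the doses, against 0.644% of all features, which the choice by smallest p brings with it.

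**Figure D3:**
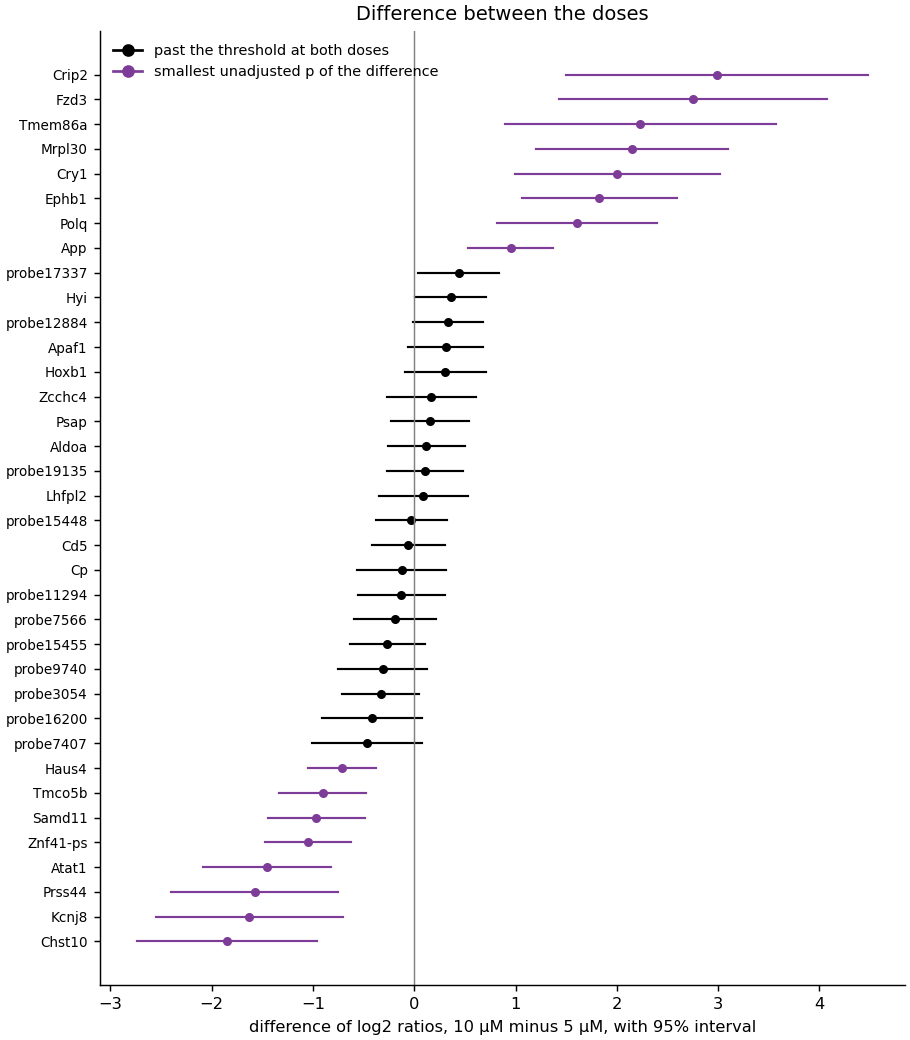
Difference of the fitted log2 ratios, 10 minus 5 µM, with its 95% interval from limma (horizontal axis), for the 20 features past the threshold at both doses (black) and the 16 genes of smallest unadjusted p of the difference (purple), sorted by the difference. The black intervals cover 0 for 18 of 20, but these features were chosen on their values at both doses. The purple intervals clear 0 because the genes were chosen for it. None of the features shown passed after adjustment.

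Passing at one dose and not at the other does not show a difference between them, and none of these genes had a dose difference that passed. At 10 µM and not at 5 µM 137 features passed, and at 5 µM and not at 10 µM 6 did: Ephb1 (-1.58 ± 0.28 at 5 µM, 0.25 ± 0.21 at 10 µM, n = 7), Znf41-ps (1.04 ± 0.16 and -0.01 ± 0.11), Samd11 (0.99 ± 0.18 and 0.03 ± 0.13), Haus4 (0.69 ± 0.13 and -0.03 ± 0.09), probe13358 and probe14097. Of those past the threshold at 10 µM alone, the named genes with the widest step were Tmem86a, Ctdspl2, App, Cebpd and Plekho1. Tmem86a, a lysoplasmalogenase, was 2.60 ± 0.38 on 7 arrays at 10 µM and 0.37 ± 0.49 at 5 µM, and its ratios depended on the dye: at 10 µM they had means of 4.06 in Cy3 and 0.99 in Cy5, and at 5 µM 1.30 and -0.55. Cebpd (12609), a transcription factor of inflammation and fat cell formation, read between 0.88 and 1.44 on all 8 arrays at 10 µM and 1.03, -0.78 and 0.46 on the 3 arrays with a value at 5 µM. Its dose difference of 0.91 had an interval from 0.19 to 1.63. Ctdspl2 (329506) was -1.2 ± 0.26 at 10 µM (n = 7) and -0.18 ± 0.35 at 5 µM, and Plekho1 (67220) 0.64 ± 0.14 and -0.13 ± 0.20. The calls of these last 2 at 10 µM were lost in most other settings, being kept in 6 of 24 and 5 of 26, as were those of Ephb1 (8 of 25), Haus4 and Samd11 (7 of 26 each) at 5 µM.

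Averaging both doses with equal weight gave a mean response, which can pass through a large value at 1 dose and so need not be shared by both. In this mean 182 features passed (1.47%), 68 higher (0.548%) and 114 lower (0.918%), of which 86 were named genes. The 182 held all 20 features past the threshold at both doses, 104 that passed at 10 µM alone, 4 that passed at 5 µM alone and 54 that passed at neither. Beyond the genes already described, 8 named genes were higher with 1 sign on every array with a value. They included Agrn (11603), a heparan sulfate proteoglycan of basement membranes, which read 0.71, 0.75, 0.54 and 0.45 at 5 µM and from 0.53 to 1.63 at 10 µM (mean response 0.76 ± 0.12). Zfp36 (22695), which promotes the decay of AU-rich messenger RNAs, had 0.75 ± 0.13, and Rin2 (74030), an exchange factor for Rab5, 0.66 ± 0.09. Sparc (20692), a collagen-binding matrix protein, had 0.52 ± 0.09, and Npc2 (67963), which carries cholesterol out of the lysosome, 0.40 ± 0.08, reading 0.36, 0.30, 0.34 and 0.35 at 5 µM and from 0.13 to 0.67 at 10 µM. Slk (20874), a Ste20-like kinase, had 0.80 ± 0.15, Clvs1 (74438), a clathrin vesicle lipid-binding protein, 0.62 ± 0.10, and Psmd13 (23997), a proteasome subunit, 0.52 ± 0.10.

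Lower in the mean of both doses was Akr1c18 (105349), a steroid dehydrogenase that inactivates progesterone, 1 of the 10 named genes with the lowest mean response and 1 sign beyond those past the threshold at both doses. It read -0.82, -1.02, -0.93 and -0.73 at 5 µM and between -1.46 and -0.72 at 10 µM, with a mean response of -0.98 ± 0.10. At 5 µM it had -0.87 ± 0.17 and an adjusted p of 0.0663 in limma, just short of the threshold. St13 (70356), a cofactor of Hsp70, had -0.90 ± 0.13, Npm1 (18148), the nucleolar phosphoprotein of ribosome assembly, -0.60 ± 0.09, and Mindy4 (330323), a putative deubiquitinase, -0.62 ± 0.09. Npm1 read -0.57, -0.68, -0.46 and -0.41 at 5 µM and between -1.01 and -0.37 at 10 µM. Adipor2 (68465), an adiponectin receptor, had -0.92 ± 0.17 and Myo7b (17922), an unconventional myosin, -0.83 ± 0.18, a call kept in 7 of 24 other settings. Ociad2 (433904) had -1.62 ± 0.26 on 3 arrays at 5 µM and 7 at 10 µM, and Efcab1 (66793) -1.04 ± 0.19, of which array 4 at 5 µM, at -3.27, is far below the other 11, which lay between -1.33 and -0.37.

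Ribosomal protein genes read below 0 at both doses. The median of 56 measured cytosolic ribosomal protein genes was -0.34 at 10 µM and -0.29 at 5 µM, against -0.00 and -0.02 over all features, and 7 of the 56 were above 0 at 10 µM and 9 at 5 µM. At 10 µM 18 passed, all lower (0.862% of all features were called lower), and at 5 µM 0 passed (0.0322%), while in the mean of both doses 17 passed, all lower (0.918%). On every one of the 12 arrays the median of the list was below 0: it was -0.34, -0.39, -0.25 and -0.22 at 5 µM and ran from -0.46 to -0.25 at 10 µM, so the doses overlapped. Rpl5 (19983), of the large subunit, had a mean response of -0.65 ± 0.09, Rpsa (16785), of the small subunit, -0.63 ± 0.10, Rps14 (20044) -0.58 ± 0.08 and Rps7 (20115) -0.55 ± 0.08. Rps14 read -0.41, -0.65, -0.52 and -0.56 at 5 µM and between -0.76 and -0.45 at 10 µM. Many of these genes have near-identical processed pseudogenes, which a cDNA probe may not tell apart. In untransfected cells the same median lay between -0.70 and -0.57 on 4 arrays. Both channels of those arrays carry the same dye label, so this direction is in doubt, and with the other reading the sign turns. Of 24 measured translation factors 2 passed in the mean of both doses, both lower, Eef1b2 (55949) at -0.58 ± 0.08 and Eif3c (56347) at -0.42 ± 0.10, calls kept in 23 and in 8 of 26 other settings, and the list's median was -0.26 at 10 µM and -0.17 at 5 µM.

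Glycolytic genes read below 0 as well, with a median of -0.31 at 10 µM and -0.39 at 5 µM over 17 measured genes. At 10 µM 4 passed and at 5 µM 1 passed, Aldoa, all lower, and in the mean of both doses 4 passed, beside the same shares over all features of 0.862%, 0.0322% and 0.918%. Pkm (18746), pyruvate kinase, had a mean response of -0.68 ± 0.11 and Gapdh (14433), often used as a reference gene, -0.42 ± 0.09, a call kept in 9 of 26 other settings. Gapdh read -0.22, -0.50, -0.13 and -0.43 at 5 µM and between -0.75 and -0.16 at 10 µM. The list's median was below 0 on all 4 arrays at 5 µM and on 7 of 8 at 10 µM, where array 6 had 0.14.

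Lysosomal genes had medians above 0. Of 22 measured genes 17 were above 0 at 10 µM and 16 at 5 µM, against 6139 and 5919 of the 12420 features, with medians of 0.19 and 0.13, and the median of the list was above 0 on all 12 arrays, from 0.15 to 0.24 at 5 µM and from 0.12 to 0.58 at 10 µM. Psap and Npc2 were the 2 that passed, both higher, in the mean of both doses, where 0.548% of all features were higher.

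**Figure D4:**
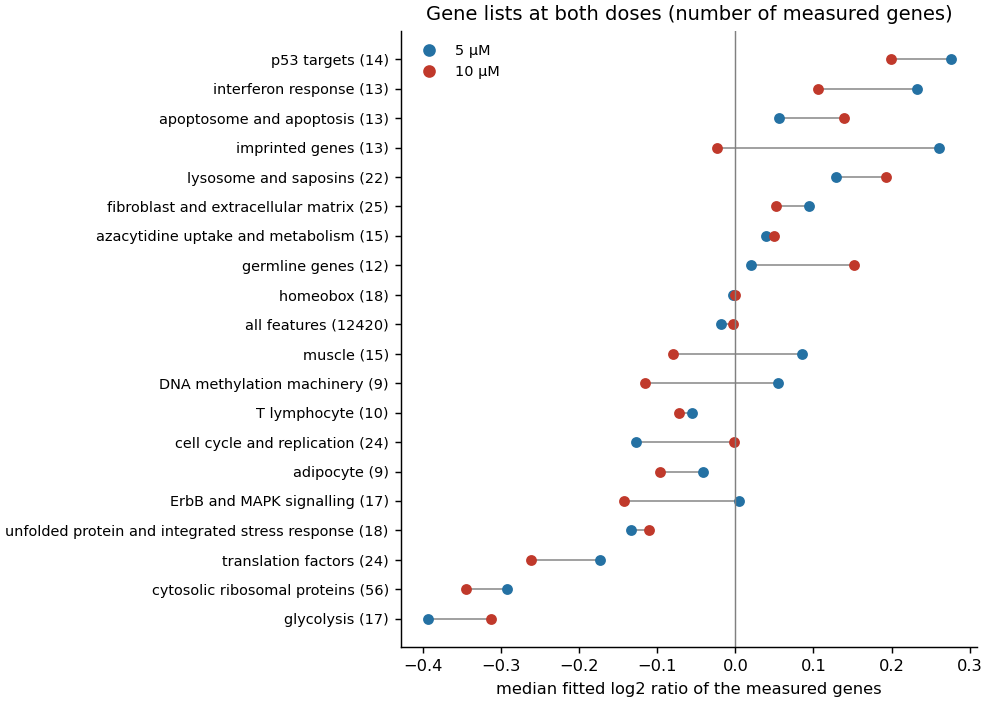
Median fitted log2 ratio of the measured genes of each list (horizontal axis) at 5 µM (blue) and 10 µM (red), with the number of measured genes in brackets and all 12420 features for comparison. Ribosomal, glycolytic and translation factor genes lie lowest at both doses, and lysosomal genes lie above 0 at both.

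Genes that take up and convert azacytidine had medians near 0, and too few were measured for a count of 0 to differ from the share over all features (1.26% at 10 µM and 0.209% at 5 µM). Of 15 measured genes of uptake and metabolism 0 passed in limma at 10 µM, at 5 µM, in their mean or in the dose difference, 0 had an unadjusted p under 0.05 for the dose difference, and the medians were 0.05 at 10 µM and 0.04 at 5 µM. Slc29a1 (63959), the equilibrative transporter, was 0.29 ± 0.11 at 10 µM and 0.17 ± 0.16 at 5 µM. The kinases Uck1 (22245) and Uck2 (80914) were 0.20 ± 0.13 and 0.18 ± 0.15 at 10 µM and 0.04 ± 0.18 and -0.14 ± 0.21 at 5 µM. Cda (72269), Rrm1 (20133) and Rrm2 (20135) had intervals of the dose difference from -1.13 to 1.02, from -0.58 to 1.41 and from -1.22 to 1.49, so each reached past a 2-fold difference between the doses on at least 1 side.

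Among 9 measured genes of the DNA methylation machinery 1 passed, Dnmt1 (13433), the maintenance methyltransferase, which rose by 0.39 ± 0.09 in the mean of both doses (adjusted p 0.0375 in limma), against 1.47% of all features. The call of Dnmt1 was kept in 8 of 26 other settings and lost in the rest. It read 0.52, 0.32, 0.61 and 0.55 at 5 µM. At 10 µM its Cy5 arrays read 0.14, 0.07, -0.01 and 0.15 and its Cy3 arrays 0.79, 0.45, 0.50 and 0.18. The arrays at 10 µM therefore split by dye, and at neither dose alone did it pass (0.50 ± 0.14 at 5 µM and 0.28 ± 0.10 at 10 µM). The de novo methyltransferase Dnmt3a (13435) was 0.23 ± 0.22 at 5 µM and -0.28 ± 0.15 at 10 µM, and Dnmt3b had no measured probe.

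The remaining lists held 0, 1 or 2 genes that passed. Over all features 1.26% passed at 10 µM, 0.209% at 5 µM and 1.47% in the mean. Counts of 0 to 2 in such short lists are too small to set against these shares, so nothing is read from them. Of 13 measured imprinted genes and 12 germline genes 0 passed at either dose or in their mean, with medians of -0.02 and 0.15 at 10 µM and 0.26 and 0.02 at 5 µM. Of 15 muscle genes 0 passed and of 9 adipocyte genes 1 did, Cebpd, whose call in the mean was kept in 6 of 24 other settings. Of 13 interferon response genes B2m (12010), the light chain of class I molecules, passed in the mean of both doses at 0.62 ± 0.14, a call kept in 11 of 26 other settings; it read 0.18, 1.12, 1.19 and 1.18 at 5 µM and between -0.12 and 0.68 at 10 µM. Of 18 genes of the unfolded protein and integrated stress response Atf4 (11911), the transcription factor that the latter translates preferentially, passed as lower at -0.39 ± 0.08, a call kept in 13 of 26 other settings. Of 17 ErbB and MAPK signalling genes 0 passed, and of 24 cell cycle and replication genes 1 passed at 10 µM, as lower, and 0 in the mean. Of 25 fibroblast and matrix genes 2 passed in the mean, Sparc as higher and Vim (22352), the intermediate filament vimentin, as lower at -0.44 ± 0.08. Of 9 fibroblast, 3 skeletal muscle, 2 adipocyte and 5 epithelial markers measured, 2, 0, 0 and 0 passed in the mean.

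If the log2 response had doubled with the dose, the value at 10 µM minus 2 times that at 5 µM would be 0. This quantity passed for 2 features (0.0161%), probe9740 (-3.92 ± 0.36, adjusted p 0.000282 in limma) and probe7407 (-3.91 ± 0.44, adjusted p 0.0018), both below 0. For Cd5 it was -1.41 ± 0.29 and did not pass (adjusted p 0.31). A log2 ratio that doubles is a fold that is squared, so the quantity does not test whether the fold doubled. It holds 2 times the value at 5 µM, so a large response of similar size at both doses moves it far from 0. At 5 µM probe9740 had 3.61 and probe7407 had 3.44. Nothing is therefore read from this quantity about proportion to the dose.

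The mean spread of the ratios of an array was wider at 10 µM, by an amount that the number of arrays did not resolve. The interquartile range of the log2 ratios of an array was 0.592, 0.762, 0.813 and 0.623 at 5 µM and ran from 0.627 to 1.21 at 10 µM, where arrays 6, 3 and 5 were widest, with 1.21, 1.05 and 1.04. The means were 0.698 ± 0.107 (SD, n = 4) and 0.885 ± 0.204 (SD, n = 8), and the difference of 0.187 had an exact permutation p of 0.109, two-sided over 495 arrangements, of which the smallest possible p is 0.00202. Without array 1 of 10 µM, whose spread of 0.627 was the smallest at that dose, the difference was 0.224 with an exact permutation p of 0.0455, while the other 11 fits that left out 1 array had exact permutation p from 0.0606 to 0.273. Arrays 6, 3 and 5 also had the most probes without a value among the arrays of Erbb2 cells, with 4089, 3789 and 3188. At 5 µM this number ran from 1753 to 2996, and its relation to the spread was not tested. Without arrays 3, 5 and 6 of 10 µM 10 features passed at both doses. In that fit 0 had a dose difference that passed in limma, with 713 at an unadjusted p under 0.05.

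**Figure D5:**
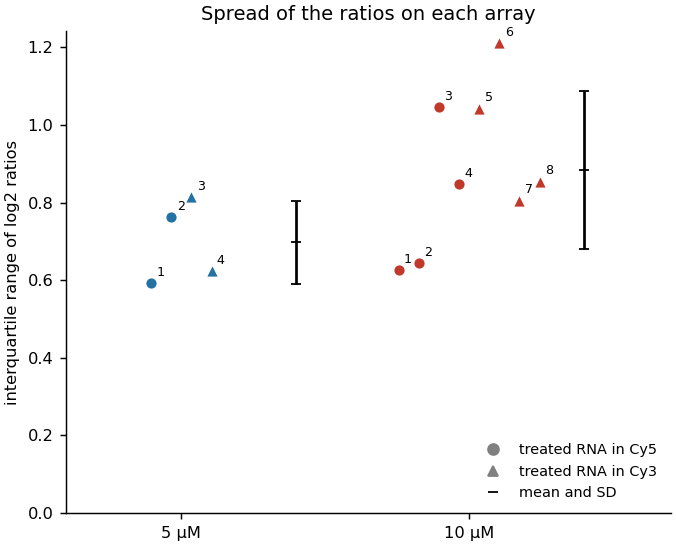
Interquartile range of the log2 ratios on each array of Erbb2 cells (vertical axis, from 0) by dose, with the replicate number beside each mark, circles for treated RNA in Cy5 and triangles for Cy3, and the mean and SD of each dose at the right. The 5 µM arrays lie between 0.592 and 0.813, and the 10 µM arrays start in the same range and reach 1.21.

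The 4 arrays of untransfected cells were part of the filter and of the fit that chose the 20 features, and on the 12 Erbb2 arrays alone 5 features passed at both doses, 4 of them among the 20. At 10 µM 339 features passed in those cells (2.73%), and the response of Erbb2 cells at 10 µM minus that of untransfected cells passed for 101 (0.813%). Of the 20 features 17 passed in untransfected cells, 7 of them with the opposite sign, and the line difference passed for 12. The line difference holds the 10 µM values of Erbb2 cells on which the 20 were chosen, so these counts and values are a description and nothing is read from them against the share over all features. Named genes that rose in Erbb2 cells at both doses and read below 0 on all 4 untransfected arrays were Apaf1 (-0.87 to -0.74), Hoxb1 (-0.96 to -0.55), Hyi (-0.85 to -0.69), Lhfpl2 (-1.51 to -0.94) and Psap (-1.05 to -0.50). Their line differences were 1.96, 1.85, 1.87, 2.08 and 1.73. Aldoa (-1.26 to -0.96) and Zcchc4 (-1.04 to -0.49) were below 0 in untransfected cells as well, and probe9740 (4.14 to 4.54) and probe7407 (3.20 to 3.87) were above 0 on all 4 arrays.

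The direction in untransfected cells is in doubt, because both channels of those arrays carry the same dye label. With the treated RNA in the other dye, all signs of that group turn, and the line difference of Apaf1 becomes 0.35 (adjusted p 0.449 in limma), that of Hoxb1 0.51 (0.241), of Hyi 0.34 (0.449), of Lhfpl2 -0.10 (0.925) and of Psap 0.21 (0.768), while that of probe9740 becomes 7.64. Under that reading 11 of the 20 differences passed. Cd5 was the one named gene whose line difference passed with the same sign under both readings, at 1.17 (adjusted p 0.00301) and 1.41 (adjusted p 0.000162), with 0.25, -0.18, 0.31 and 0.10 on the untransfected arrays.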

How the data were processed

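The arrays were spotted mouse cDNA arrays read in 2 colours. The deposited values are log2 ratios of both channels, with the authors' background correction and normalization not given in the sources used here. The values themselves show 1 constant added per array, with 928 of 928 ratios under 0.05 being whole multiples of 0.001 (tolerance 0.05 thousandths) once it was removed. Depth does not apply to arrays, whose number limits the precision.

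Cells at the repeated top value of an array, a ratio of 100000, were set to missing. Probes with a value on at least 3 arrays in each group of 4 and 6 in the group of 8 were kept (14813 of 20355), and probes of a gene were averaged. Of all probes 14030 had 1 symbol, 5 had several and 6320 had none; 13994 symbols matched RefSeq. limma 3.58.1 (R 4.3.3) fitted the 3 groups and a shared dye term on all 16 arrays, with Benjamini-Hochberg adjustment, and the script was tested on simulated data. A missing value drops that array for that feature.

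Named were all features past the threshold at both doses, the 8 genes of smallest p in each direction of the dose difference, up to 10 genes at each end of the mean response with 1 sign, up to 5 genes past it at 1 dose only for each dose, up to 3 genes of each list and some genes of azacytidine metabolism. The members and lists were chosen with earlier results of these data known. Same-numbered arrays of both doses had correlations of their deviations of 0.03, 0.04, -0.01 and -0.03, so the numbers do not pair them.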

Additional observations from a re-analysis of the deposited data

Results flagged for a closer look

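Single arrays stood apart from the others of their group for 11 of 168 groups of values tested, where chance flags about 1 in 20 (8.4). At 5 µM these were array 1 for B2m (0.18, below the others) and array 4 for Cdkn1a (1.69, above) and for Efcab1 (-3.27, below). At 10 µM array 6 stood apart for Eif3c (-0.999), Prss44 (-1.90) and Slc29a1 (0.64), array 3 for Rrm1 (3.13) and array 8 for probe3054 (-1.68). In untransfected cells array 4 stood apart for Hoxb1 (-0.96) and probe15455 (1.73), and array 3 for Lhfpl2 (-1.51).

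The response at 10 µM differed between Erbb2 and untransfected cells, by the test of that difference in limma, for 12 of the 20 features past the threshold at both doses, against 0.813% of all features; the 20 were chosen on the same 10 µM values, so the count and the values are a description. Erbb2 minus untransfected, the log2 differences were 1.96 for Apaf1, 1.17 for Cd5, 1.14 for Cp, 1.85 for Hoxb1, 1.87 for Hyi, 2.08 for Lhfpl2, 1.73 for Psap, 2.00 for probe12884, 2.31 for probe17337, 1.65 for probe19135, -1.01 for probe15455 and -1.05 for probe9740. The dye label of the untransfected arrays is in doubt, and with the other reading Cd5 alone of these passed with the same sign.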

How the results depend on the processing

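The dose difference had 0 features past the threshold in every setting tried, with smallest adjusted p in limma from 0.0501 (a dye term for each group) to 1 and 301 to 848 features at an unadjusted p under 0.05. The other counts moved. Features past the threshold at both doses, in the mean, at 10 µM, at 5 µM and away from a doubled log2 response numbered 20, 182, 157, 26 and 2 as reported. On the 12 arrays alone, 5 passed at both doses, 99 at 10 µM and 5 at 5 µM, and with the filter also set on those arrays 4, with 112 in the mean, 96 at 10 µM and 4 at 5 µM. With a value required on every array the 5 counts were 43 (21 higher and 22 lower), 332, 241, 66 and 5. A dye term for each group gave 6 at both doses, 9 at 5 µM and 4 away from doubling, and scaling arrays to 1 spread gave 45 at 5 µM. Array weights gave 63 at both doses (28 higher and 35 lower), 327 in the mean, 147 at 5 µM and 12 away from doubling. With each probe on its own 12 passed at both doses and 16 at 5 µM. Without arrays 3, 5 and 6 of 10 µM the counts were 10 at both doses, 114 in the mean and 32 at 10 µM. A test against a 1.2-fold change gave 37 in the mean, 33 at 10 µM and 4 at 5 µM. Adjusting the larger p of both doses gave 10, and an unadjusted p at the second dose 112. Leaving out 1 array gave 4 to 17 at both doses, 96 to 168 in the mean, 93 to 144 at 10 µM, 5 to 21 at 5 µM and 2 to 3 away from doubling, and a difference in spread of 0.141 to 0.226, with 0.224 without array 1 of 10 µM (exact permutation p 0.0455; 0.0606 to 0.273 in the other 11). Chosen after seeing the data, setting ratios of small whole numbers to missing gave 22, 223, 178, 28 and 2. Apart from the settings that use fewer arrays or features, the cause was not tested.

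The replicate block left 2 at both doses, 3 in the mean, 61 at 10 µM, 2 at 5 µM and 0 away from doubling; the numbers do not pair the arrays, and 1 of 4 arrays of 10 µM correlated best with its own number.

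With no array turned for its dye the counts were 0, 2, 2, 0 and 0. The dyes were balanced within each dose, so in this setting the response cancels and the difference between the dyes remains. A turned sign here does not show a reversed response. These values turned sign. At 10 µM they were 0.23 for Aldoa, -0.16 for Cd5, -0.21 for Hyi, -5e-04 for probe11294, -0.17 for probe12884, -0.042 for probe15448, -0.015 for probe16200, -0.024 for probe17337 and for probe19135, 0.13 for probe3054, -0.097 for probe7407, -0.062 for Psap, 0.11 for Zcchc4, -1.71 for Tmem86a and 0.10 for Ctdspl2. At 5 µM they were 0.20 for Aldoa, -0.17 for Cd5, -0.18 for Hoxb1 and for Hyi, -0.25 for probe12884, -0.060 for probe15455, -0.022 for probe16200, 0.004 for probe3054, -0.059 for Psap, 0.72 for Ephb1, -0.22 for Znf41-ps and -0.034 for Haus4. In the mean they were 0.22 for Aldoa and Pkm, -0.17 for Cd5, -0.063 for Hoxb1, -0.060 for Psap, -0.014 for Clvs1, -0.22 for Psmd13, -0.086 for Sparc, -0.074 for Npc2, 0.16 for Ociad2, 0.45 for Efcab1, 0.072 for Akr1c18, 0.44 for Adipor2, 0.018 for Myo7b, -0.14 for Cebpd and Dnmt1, 0.024 for Rps14, 0.17 for Eif3c, -0.24 for B2m and 0.0037 for Vim.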
